A study of Caenorhabditis elegans with 16 samples.

Results

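The neuropeptide genes of *Caenorhabditis elegans* are described here across 4 treatments of the sterile strain SS104 glp-4(bn2). Members were all genes of the deposited count table named flp, nlp or pdf with a number that had at least 10 counts in at least 4 libraries. The genes nlp-27, nlp-28, nlp-29, nlp-30, nlp-31, nlp-33 and nlp-34, which encode antimicrobial-type peptides, were left out by the same rule. Of 47029 genes in the table, 101 had such a name, 6 of these were under the count rule, and 95 were members: 30 flp, 63 nlp and 2 pdf genes. All 95 passed the low-count filter of the test, in which 14328 genes were tested.

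The study compared 4 groups of 4 biological replicates, and every animal carried the temperature-sensitive glp-4(bn2) mutation, which leaves adults nearly without germ cells after growth at the restrictive temperature. Worms were kept at 15 °C, moved to 24 °C as L2 or L3 larvae and fed Escherichia coli OP50. From the L4 stage they lived on bacterial lawns overlaid with both compounds (the combination), with curcumin in phytosome form (bound to phospholipids) at 5 mg/mL, with sulforaphane, an isothiocyanate from cruciferous plants, at 0.625 mg/mL, or with nothing (the control, for which no vehicle is named). PolyA RNA of whole animals was sequenced on day 3 of adulthood, so each value is a mean over all cells of many animals, and the stated purpose was the effect of natural products on healthspan.

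Neuropeptides are short peptides cut from longer precursors in dense core vesicles, many of them amidated at their carboxyl end. These peptides are released from neurons and some other cells such as those of the intestine. They act mostly on G protein-coupled receptors, often on cells without a synapse to the releasing cell, and are removed by membrane peptidases of the neprilysin type. In *C. elegans* the flp genes encode FMRFamide-like peptides, the nlp genes a mixed set of other peptides, and the pdf genes relatives of the insect pigment-dispersing factor; among the behaviours they set are locomotion, egg laying, sleep-like states, feeding and learning.

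Total counts lay between 14315538 and 19964755 per library, of which the members held between 36793 and 58824, or 0.243% to 0.295%. Between replicates of a group the median SD of a member was 0.196 on the log2 CPM scale, against 0.195 for all tested genes. All 15 pan-neuronal genes checked passed the filter, and 9 germline genes still summed to between 243 and 361 CPM (counts scaled to library size by TMM) in this strain with few germ cells.

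Levels spanned almost 3 orders of magnitude. Compared per length, as the authors' FPKM, nlp-77 averaged 996 ± 160 and nlp-40 849 ± 76.4 over all libraries (SD, n = 16). The next was nlp-36 with 165 ± 20.0, followed by flp-28 with 121 ± 9.50, nlp-49 with 105 ± 10.4 and flp-22 with 101 ± 7.67. Below them came flp-10 with 96.7 ± 14.5, pdf-1 with 94.2 ± 7.15, nlp-20 with 89.5 ± 9 and flp-14 with 72.4 ± 10.5. Among these 10 genes the range over libraries overlapped between each gene and the next, except between nlp-40 and nlp-36. The median member had 17.2 FPKM, 15 members reached 50 FPKM and 65 reached 10 FPKM. nlp-40 is known as a peptide released by the intestine that times the expulsion step of defecation through the receptor AEX-2, and nlp-49 as a ligand of the receptor SEB-3 that raises arousal.

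**Figure D1:**
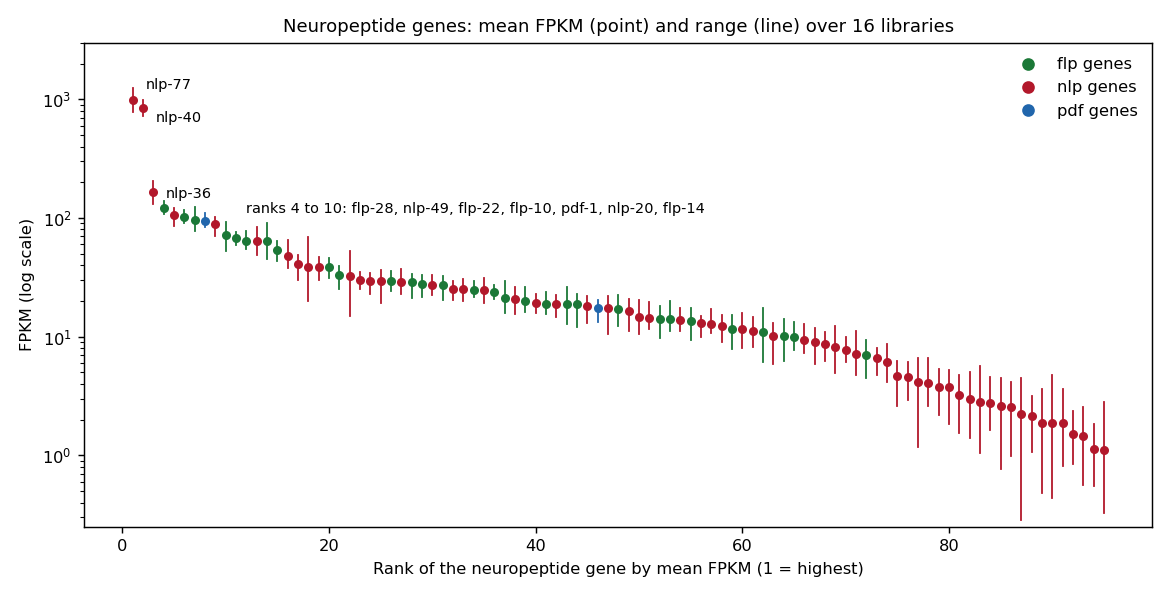
FPKM (log scale) of the 95 neuropeptide genes in the order of their mean over 16 libraries; points are means, lines the range from the lowest to the highest library, colours the 3 name families. nlp-77 and nlp-40, at 996 and 849 FPKM, stand apart from nlp-36 at 165, and the ranges widen at the low end.

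Summed over the members, the level was 2735, 2949, 2646 and 2746 CPM in combination worms, 2975, 2916, 2444 and 2655 CPM in curcumin worms, 2737, 2521, 2564 and 2590 CPM in sulforaphane worms and 2716, 2452, 2507 and 2484 CPM in control worms. These ranges overlapped between all groups. A large share of the sum came from nlp-77 and nlp-40, which together held 1318 ± 112 CPM in combination worms, 1220 ± 142 CPM in curcumin worms, 1291 ± 75.6 CPM in sulforaphane worms and 1129 ± 81.2 CPM in control worms (SD, n = 4 each). Without that pair the other members summed to 1417, 1494, 1465 and 1430 CPM in combination worms, 1632, 1605, 1414 and 1461 CPM in curcumin worms, 1342, 1260, 1274 and 1372 CPM in sulforaphane worms and 1486, 1300, 1415 and 1442 CPM in control worms. Of these sums, all 4 of curcumin worms and all 4 of combination worms lay above all 4 of sulforaphane worms. Those of control worms overlapped every other group. The pair was set apart by its level in these same data, and its gene nlp-40 was called lower in curcumin than in sulforaphane worms. With all members kept, no such separation was seen.

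The order of the 4 groups was uneven across members. The mean CPM was highest in curcumin worms for 49 members (51.6%, against 21% of all tested genes) and lowest in sulforaphane worms for 56 members (58.9%, against 27.6%). Both held for 35 members, which is 36.8% of them, against 10.6% of all tested genes. The combination was highest for 16 members (16.8%, against 28.4%) and lowest for 13 (13.7%, against 27.8%), and the control was highest for 26 (27.4%, against 28.5%) and lowest for 19 (20%, against 23.2%). In RNA of whole animals, fewer cells of a type and less RNA per cell cannot be told apart, and this touches every difference below.

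**Figure D2:**
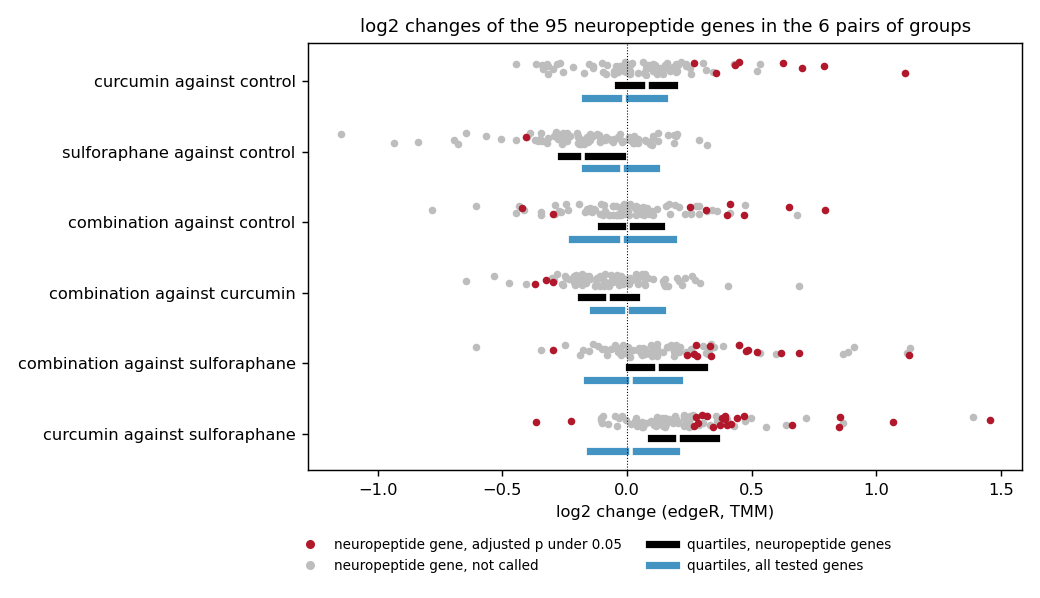
log2 change of each of the 95 neuropeptide genes in the 6 pairs of groups (points, red where the adjusted p was under 0.05), with the median and quartiles of these genes (black bar) and of all 14328 tested genes (blue bar). The member median is 0.205 in curcumin against sulforaphane and -0.176 in sulforaphane against control, while the medians of all tested genes lie between -0.021 and 0.018.

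Curcumin raised 8 neuropeptide genes over the control and lowered none. They were nlp-59, nlp-39, flp-6, nlp-67, flp-34, nlp-51, flp-8 and nlp-14, each called at an adjusted p under 0.05 by edgeR's quasi-likelihood test with Benjamini-Hochberg adjustment over all tested genes. This is 8.42% of the members, against 14.6% of all tested genes called, 6.87% called higher and 7.71% called lower. At an unadjusted p under 0.05 there were 15 members, or 15.8%, against 24.3% of all tested genes. Curcumin and control libraries did not overlap for 5 members that were higher and for none that was lower, against backgrounds of 7.72% and 9.05%. The median log2 change of the members was 0.08, against -0.01 for all tested genes, and 63 members lay above 0. It moved to 0.03, with 53 above 0, without control replicate 2 and to 0.13, with 69 above 0, without control replicate 1. The count of rises fell to 5 without control replicate 2, curcumin replicate 2 or curcumin replicate 4, where 12%, 11.9% and 12.6% of all tested genes were called.

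The largest rise was in nlp-59 (chromosome V, 14971436 to 14972419, plus strand, WBcel235). It had 25.6, 24.8, 30.7 and 26.5 CPM in combination worms, 36.2, 32.5, 30.9 and 34.9 CPM in curcumin worms, 10.1, 13.2, 13.7 and 11.9 CPM in sulforaphane worms and 15.2, 13.9, 15.6 and 17.3 CPM in control worms. Every curcumin and combination library was above every control library, and every sulforaphane library was below every control library. The log2 change was 1.12 (SE 0.10, adjusted p = 4.79e-09) for curcumin and 0.79 (SE 0.10, adjusted p = 9.57e-07) for the combination against control. For sulforaphane it was -0.34 (SE 0.11, adjusted p = 0.0532), which missed the threshold. The combination was below curcumin by a log2 change of -0.32 (SE 0.09, adjusted p = 0.0348), a call lost without curcumin replicate 1 or 4 or combination replicate 1, 2 or 4, where the adjusted p was 0.0747 to 0.101.

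flp-6 (chromosome V, 9471975 to 9473792, plus strand), an FMRFamide-like gene of the thermosensory AFD neurons that has been tied to lifespan at warm temperature, had 51.7, 55.4, 48.8 and 56.7 CPM in combination worms, 64.2, 66.4, 59.5 and 59.6 CPM in curcumin worms, 33.5, 32.6, 33.9 and 38.7 CPM in sulforaphane worms and 42.4, 39.4, 36.4 and 35.5 CPM in control worms. Both curcumin-containing groups were clear of the control, and the sulforaphane libraries overlapped it. Against control the log2 change was 0.70 (SE 0.08, adjusted p = 1.59e-07) with curcumin, 0.47 (SE 0.08, adjusted p = 3.91e-05) with the combination and -0.15 (SE 0.08, adjusted p = 0.323) with sulforaphane.

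nlp-39 had 14.9, 16.7, 9.70 and 13.7 CPM in curcumin worms, against 9.99, 6.40, 8.80 and 6.57 CPM in control worms. Curcumin replicate 3 fell inside the control range and the other curcumin libraries lay above it. It rose by a log2 change of 0.79 (SE 0.18, adjusted p = 0.00332). nlp-67 had 9.66, 9.15, 8.05 and 7.53 CPM in curcumin worms, against 5.18, 4.6, 5.31 and 7.21 CPM in control worms, without overlap, and rose by a log2 change of 0.62 (SE 0.14, adjusted p = 0.00260). nlp-51 had 23, 24.4, 27.5 and 24.1 CPM in curcumin worms, against 18.9, 16.1, 19.5 and 18.7 CPM in control worms. It also did not overlap, and rose by 0.43 on the log2 scale (SE 0.08, adjusted p = 5.88e-04).

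The remaining rises under curcumin were smaller, and each call depended on single libraries. flp-34, whose peptides act through the receptor NPR-11 in aversive olfactory learning, had 9.46, 10.2, 8.62 and 8.56 CPM in curcumin worms, against 5.31, 5.93, 8.68 and 7.01 CPM in control worms. The 2 groups overlapped through control replicate 3. Its log2 change was 0.45 (SE 0.15, adjusted p = 0.0411), and the call was lost without control replicate 1, 2 or 4 or curcumin replicate 1, 2 or 4 (adjusted p 0.0516 to 0.148). flp-8, which acts in the turning behaviour of males during mating, had 15.2, 14, 13.3 and 13.2 CPM in curcumin worms, against 12.2, 11.3, 9.61 and 10.5 CPM in control worms, a log2 change of 0.36 (SE 0.12, adjusted p = 0.0479). That call was lost without any one of 10 libraries (control replicates 2, 3 and 4, all 4 of curcumin, sulforaphane replicate 1, combination replicates 1 and 4; adjusted p 0.0518 to 0.139). nlp-14, an orcokinin-type gene with a part in sleep-like quiescence, had 35.2, 35, 30.4 and 33.4 CPM in curcumin worms, against 26.6, 23.9, 27.7 and 33.2 CPM in control worms. Control replicate 4 reached into the curcumin range. Its log2 change was 0.27 (SE 0.09, adjusted p = 0.0331), and the call was lost without control replicate 1 or 2 or curcumin replicate 1, 2 or 4 (adjusted p 0.0555 to 0.151). All 3 of these calls were also lost when counts were scaled by library size alone, and those of flp-34 and nlp-14 with the fit limited to the groups compared.

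**Figure D3:**
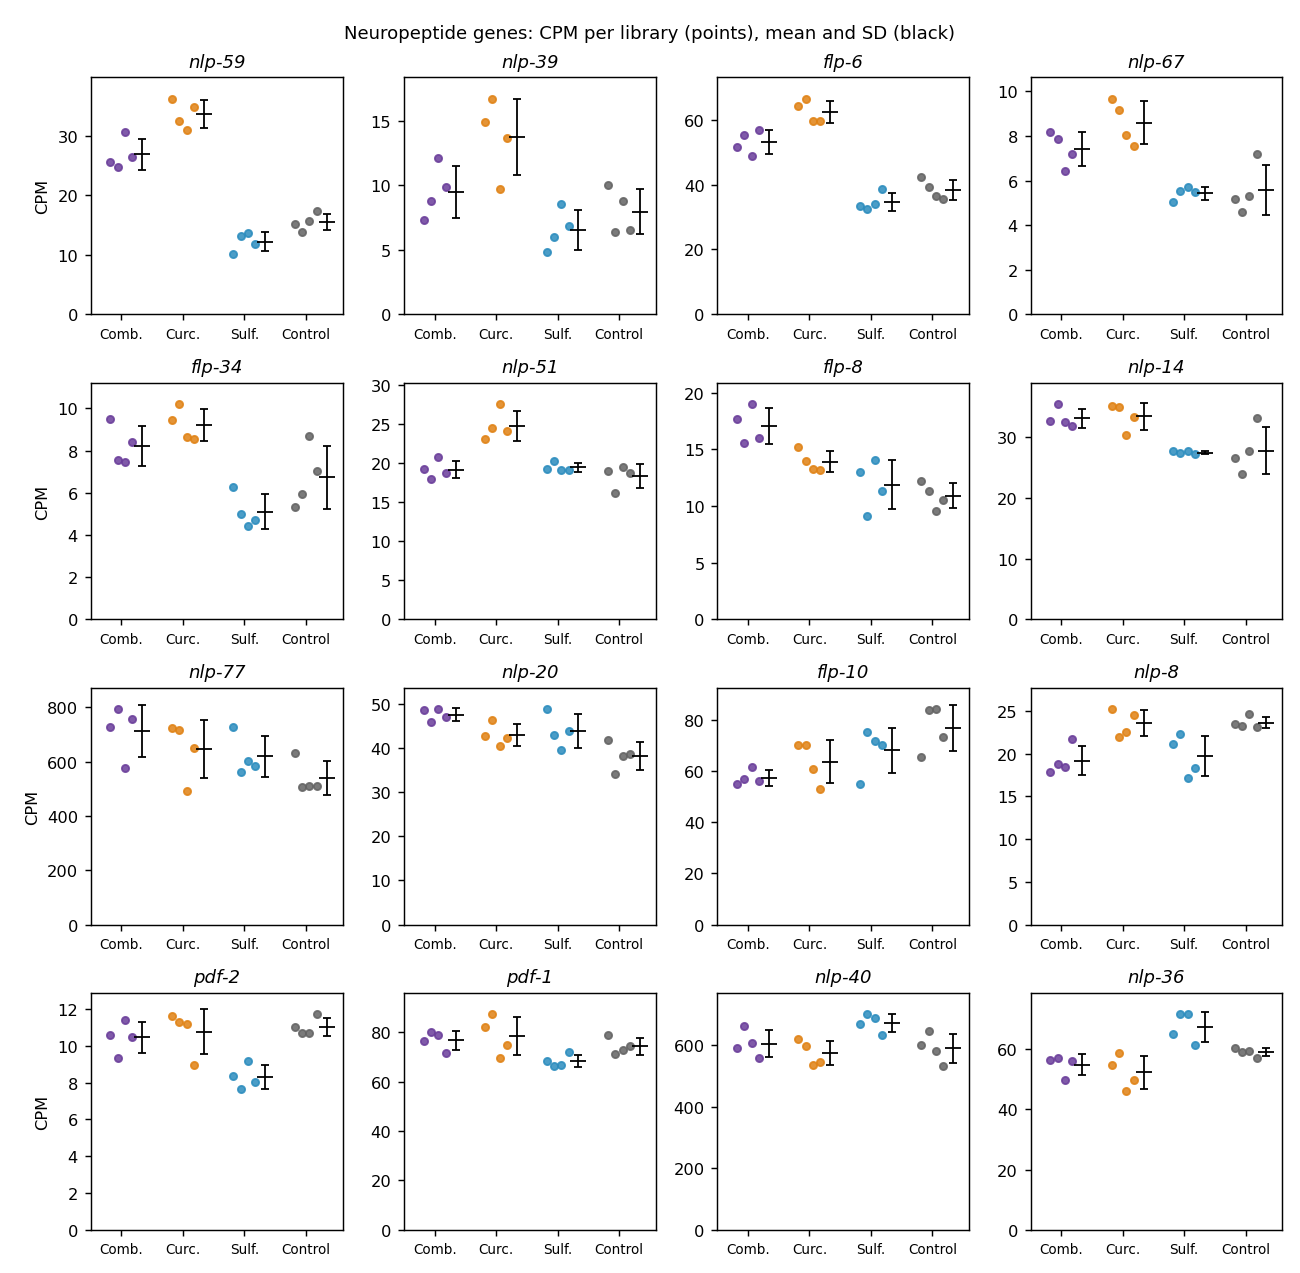
CPM of 16 named neuropeptide genes in each library (points; 4 per group, from left to right combination, curcumin, sulforaphane, control), with the mean and SD in black; each axis starts at 0. nlp-59 and flp-6 are higher in all combination and curcumin libraries than in any control library, and pdf-2 is lower in all 4 sulforaphane libraries than in any control library.

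Sulforaphane lowered pdf-2, and no other member was called against control by the same test. That is 1 of 95 members, or 1.05%, against 6.71% of all tested genes called, 4.33% called higher and 2.37% called lower. At an unadjusted p under 0.05 there were 18 members, or 18.9%, against 18.4% of all tested genes. Sulforaphane and control libraries did not overlap for 1 member that was higher and 5 that were lower, against backgrounds of 7.83% and 6%. The median log2 change of the members was -0.18, against -0.02 for all tested genes, and 23 of 95 members lay above 0. The count of 1 call became 0 without control replicate 1 or 4 or sulforaphane replicate 1, 2 or 4, rose to 3 without control replicate 2 and to 2 without sulforaphane replicate 3 or combination replicate 3. Over the libraries left out, 5% to 7.46% of all tested genes were called. The median kept its sign under the other scalings, filters, tools and units that were tried, at -0.21 to -0.14, and without each library, at -0.19 to -0.11. The smallest in size, -0.11 with 31 members above 0, came without control replicate 1.

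pdf-2 (chromosome X, 2163384 to 2164069, plus strand) and pdf-1 (chromosome III, 6909590 to 6912266, minus strand) encode the peptides that act on the receptor PDFR-1, which promotes roaming over dwelling and mate searching. pdf-2 had 10.6, 9.32, 11.4 and 10.5 CPM in combination worms, 11.6, 11.3, 11.2 and 8.96 CPM in curcumin worms, 8.34, 7.66, 9.19 and 8.05 CPM in sulforaphane worms and 11, 10.7, 10.7 and 11.7 CPM in control worms. All sulforaphane libraries were below all control libraries, while the combination and curcumin overlapped the control. The log2 change under sulforaphane was -0.41 (SE 0.11, adjusted p = 0.0249). This call was lost without control replicate 1, 3 or 4 or sulforaphane replicate 1, 2 or 4, where the adjusted p was 0.0564 to 0.0960, and with all genes of at least 1 read kept in the fit. pdf-1 had 68.5, 66.3, 66.9 and 72 CPM in sulforaphane worms, against 79, 71, 72.9 and 74.4 CPM in control worms, with overlap and a log2 change of -0.12 (SE 0.07, adjusted p = 0.391). The receptor gene pdfr-1 had 18.7 ± 1.21 CPM in sulforaphane worms and 20.9 ± 0.705 CPM in control worms (SD, n = 4 each) and did not pass the test (adjusted p = 0.417).

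Under the combination, 7 members rose and 2 fell against control. The rises were nlp-59, flp-8, flp-6, nlp-67, nlp-77, nlp-20 and nlp-14, and the falls flp-10 and nlp-8. Together they are 9.47% of the members, against 23.1% of all tested genes called, 12.1% called higher and 11% called lower. At an unadjusted p under 0.05 there were 15 members, or 15.8%, against 33.2% of all tested genes. The libraries did not overlap for 6 members that were higher and 7 that were lower, against backgrounds of 11.7% and 11.1%. The median log2 change was 0.01 for the members and -0.02 for all tested genes, so near 0 that its sign depended on the setting. It was -0.04 under scaling by library size alone (all tested genes -0.07) and -0.003 where 10 counts were asked of every library. It was also below 0 without any one of 7 libraries (control replicate 2, each curcumin replicate and combination replicates 2 and 3), and lay between -0.05 without control replicate 2 and 0.04 without control replicate 1.

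flp-8 (chromosome X, 14881419 to 14882267, plus strand) had 17.7, 15.6, 19 and 16 CPM in combination worms, against 12.2, 11.3, 9.61 and 10.5 CPM in control worms. The groups were well apart, with a log2 change of 0.65 (SE 0.12, adjusted p = 1.85e-04). nlp-77 (chromosome II, 7790591 to 7791375, plus strand), the most abundant member per length, had 726, 792, 575 and 758 CPM in combination worms, against 631, 506, 511 and 509 CPM in control worms. Combination replicate 3 lay inside the control range, whose upper end was control replicate 1 alone. Its log2 change was 0.40 (SE 0.11, adjusted p = 0.00909), and it passed the test in every alternative run. nlp-20 had 48.6, 45.9, 48.7 and 46.9 CPM in combination worms, against 41.7, 34.1, 38.1 and 38.5 CPM in control worms, without overlap, a log2 change of 0.32 (SE 0.08, adjusted p = 0.00258).

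nlp-67 had 8.17, 7.88, 6.43 and 7.20 CPM in combination worms, against 5.18, 4.6, 5.31 and 7.21 CPM in control worms. Control replicate 4 overlapped the combination. The log2 change was 0.41 (SE 0.14, adjusted p = 0.0400), and the call was lost without control replicate 1, 2 or 3, curcumin replicate 3 or combination replicate 1, 2 or 4 (adjusted p 0.0514 to 0.149). nlp-14 had 32.8, 35.5, 32.5 and 31.9 CPM in combination worms, against the 26.6, 23.9, 27.7 and 33.2 CPM of control worms, and again control replicate 4 was the overlap. Its log2 change was 0.25 (SE 0.09, adjusted p = 0.0331), lost without control replicate 1, 2 or 3 or combination replicate 2 or 3 (adjusted p 0.0566 to 0.167). Both calls were also lost with library size alone, with all genes of at least 1 read kept and with the fit limited to the groups compared.

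Of the genes that fell under the combination, flp-10 (chromosome IV, 7868907 to 7870081, plus strand) encodes, with flp-17, peptides that act on the receptor EGL-6 and inhibit egg laying. It had 54.9, 56.7, 61.7 and 56 CPM in combination worms, 70.3, 70.3, 60.9 and 53 CPM in curcumin worms, 55, 75.1, 71.7 and 70.3 CPM in sulforaphane worms and 65.6, 84, 84.1 and 73.1 CPM in control worms. All combination libraries were below all control libraries, whereas the curcumin and sulforaphane libraries overlapped the control. The log2 change was -0.42 (SE 0.10, adjusted p = 0.00259) with the combination, -0.27 (SE 0.10, adjusted p = 0.0737) with curcumin and -0.17 (SE 0.10, adjusted p = 0.379) with sulforaphane. The receptor gene egl-6 had 6.89 ± 1.35 CPM in combination worms and 7.24 ± 1.12 CPM in control worms (SD, n = 4 each), with no call (adjusted p = 0.821).

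nlp-8 (chromosome I, 7800455 to 7801822, minus strand) is one of the genes of the ALA neuron that bring about sleep after cellular stress. It had 17.9, 18.8, 18.4 and 21.7 CPM in combination worms, 25.2, 22, 22.6 and 24.5 CPM in curcumin worms, 21.1, 22.3, 17.2 and 18.3 CPM in sulforaphane worms and 23.5, 23.3, 24.6 and 23.1 CPM in control worms. The combination and sulforaphane libraries lay below every control library, and curcumin libraries lay on both sides of the control. The log2 change against control was -0.30 (SE 0.09, adjusted p = 0.0197) with the combination, lost without control replicate 3 or combination replicate 1 (adjusted p 0.0583 and 0.0641). Curcumin and control had the same mean of 23.6 CPM (adjusted p = 0.9997), and sulforaphane gave -0.26 (SE 0.09, adjusted p = 0.09996).

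The combination stood below curcumin for nlp-51, nlp-59 and nlp-8 and above it for no member. These 3 are 3.16% of the members, against 7.32% of all tested genes called, 4.65% called higher and 2.67% called lower, and 11 members (11.6%) had an unadjusted p under 0.05, against 18.1% of all tested genes. Without curcumin replicate 1 or 4 or combination replicate 1 or 2 the count was 1, with 5.99% to 6.69% of all tested genes called. nlp-51 (chromosome II, 11319223 to 11319691, minus strand) had 19.2, 18, 20.7 and 18.7 CPM in combination worms, against 23, 24.4, 27.5 and 24.1 CPM in curcumin worms. The 2 groups did not overlap, and the combination lay at the level of sulforaphane (19.2, 20.3, 19.1 and 19.1 CPM) and of the control. The log2 change of the combination against curcumin was -0.37 (SE 0.08, adjusted p = 0.00559). For nlp-8 it was -0.30 (SE 0.09, adjusted p = 0.0482), lost without curcumin replicate 1 or 4, sulforaphane replicate 1 or combination replicate 1, 2 or 3 (adjusted p 0.0525 to 0.139). This nlp-8 call was also lost with the fit limited to the groups compared.

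The interaction is the log2 change under the combination minus those under curcumin and under sulforaphane, and is 0 where the 2 single changes add up to it. edgeR called none of the 95 members, against 0.991% of all tested genes. At an unadjusted p under 0.05 there were 8 members, or 8.42%, against 9.05% of all tested genes. DESeq2 called 1 member, or 1.05%, against 1.56% of all tested genes. That gene was nlp-51, with an interaction of -0.46 (SE 0.12, adjusted p = 0.0785) in edgeR and -0.48 (adjusted p = 0.0250) in DESeq2. Without control replicate 3 or combination replicate 3, edgeR called it too (adjusted p 0.0469 and 0.0403).

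The widest separation among the 6 pairs was between the single compounds, which were given at different doses. Between curcumin and sulforaphane, 21 members differed, 19 higher with curcumin and 2 lower. This is 22.1% of the members, against 18.1% of all tested genes called, 7.62% called higher and 10.5% called lower, and 30 members (31.6%) had an unadjusted p under 0.05, against 28.4% of all tested genes. The median log2 change was 0.21 for the members and 0.02 for all tested genes, and 83 of 95 members lay above 0. The flp genes, with 8 called higher and none lower of 30, had a median of 0.23, and the nlp genes, with 10 higher and 2 lower of 63, a median of 0.20.

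Among the called members the 5 largest differences were nlp-59 with a log2 change of 1.46 (SE 0.10, adjusted p = 3.57e-11), nlp-39 with 1.07 (SE 0.19, adjusted p = 1.41e-04), flp-34 with 0.85 (SE 0.15, adjusted p = 0.000167), flp-6 with 0.85 (SE 0.08, adjusted p = 4.30e-09) and nlp-67 with 0.66 (SE 0.14, adjusted p = 0.00128). nlp-39 had 14.9, 16.7, 9.70 and 13.7 CPM in curcumin worms, against 4.81, 5.97, 8.54 and 6.85 CPM in sulforaphane worms. flp-34 (chromosome V, 1027891 to 1033404, minus strand) had 9.46, 10.2, 8.62 and 8.56 CPM in curcumin worms, against 6.29, 5.00, 4.43 and 4.71 CPM in sulforaphane worms. In all 5 genes every curcumin library was above every sulforaphane library, and the control mean lay between the means of both compounds.

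The 2 members higher in sulforaphane worms are among the most abundant. nlp-40 (chromosome I, 11495 to 16837, plus strand), the intestinal peptide, had 621, 596, 537 and 546 CPM in curcumin worms, against 668, 700, 689 and 634 CPM in sulforaphane worms, without overlap. The log2 change was -0.23 (SE 0.07, adjusted p = 0.0226), and the call was lost without curcumin replicate 3 or sulforaphane replicate 2 or 3 (adjusted p 0.0623 to 0.0706). Markers of the intestine moved in the same pair, with 6 of 7 lower in curcumin worms and a sum of 798 to 876 CPM in curcumin worms, against 1250 to 1400 CPM in sulforaphane worms; their part in the nlp-40 result was not tested. nlp-36 (chromosome III, 9488731 to 9489186, plus strand) had 54.7, 58.6, 46.2 and 49.7 CPM in curcumin worms, against 65, 71.5, 71.5 and 61.4 CPM in sulforaphane worms. That is a log2 change of -0.36 (SE 0.08, adjusted p = 8.92e-04), again without overlap.

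Of the other members called in this pair, which were not chosen by the rule for named genes and are given after their values had been seen, several have studied roles. nlp-3, a gene of the HSN neurons whose peptides stimulate egg laying, had 19.2, 17.3, 16.1 and 17 CPM in curcumin worms, against 14.8, 10.0, 10.7 and 14.8 CPM in sulforaphane worms, a log2 change of 0.47 (SE 0.13, adjusted p = 0.00813). flp-7, whose tachykinin-like peptides act through NPR-22 on fat stores, differed by 0.40 (SE 0.11, adjusted p = 0.00927). flp-21, a ligand gene of NPR-1, differed by 0.42 (SE 0.15, adjusted p = 0.0488), a call lost without any one of 14 libraries (all but control replicate 4 and sulforaphane replicate 3; adjusted p 0.0521 to 0.187). flp-1, a gene of the AVK neurons that shapes locomotion, differed by 0.32 (SE 0.09, adjusted p = 0.0121), lost without curcumin replicate 2 or sulforaphane replicate 2 or 3 (adjusted p 0.0506 to 0.0579). nlp-18, a ligand gene of the receptor CKR-1, differed by 0.39 (SE 0.10, adjusted p = 0.00824) and the arousal peptide nlp-49 by 0.30 (SE 0.08, adjusted p = 0.00510). The rest were flp-19, flp-3, nlp-11, pdf-2, nlp-51, nlp-14, nlp-6 and flp-9, with log2 changes between 0.27 (flp-9) and 0.44 (flp-19). Of these, flp-19 was lost without sulforaphane replicate 2 (adjusted p = 0.0711), nlp-14 without curcumin replicate 1 or 2 (adjusted p 0.0505 and 0.0533) and pdf-2 without curcumin replicate 1, 2 or 3 or sulforaphane replicate 2 or 4 (adjusted p 0.0545 to 0.0694). nlp-6 was lost without any one of 10 libraries (all but control replicate 4, curcumin replicate 4, sulforaphane replicates 1 and 4 and combination replicates 2 and 3; adjusted p up to 0.165). flp-9 was lost without any one of 11 (all but control replicate 1, curcumin replicate 3, sulforaphane replicate 1 and combination replicates 2 and 3; adjusted p up to 0.157), and with DESeq2's size factors and both FPKM scales. With all genes of at least 1 read kept, flp-21, nlp-6 and pdf-2 also lost the call, and flp-21 and nlp-6 lost it with the fit limited to the groups compared.

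**Figure D4:**
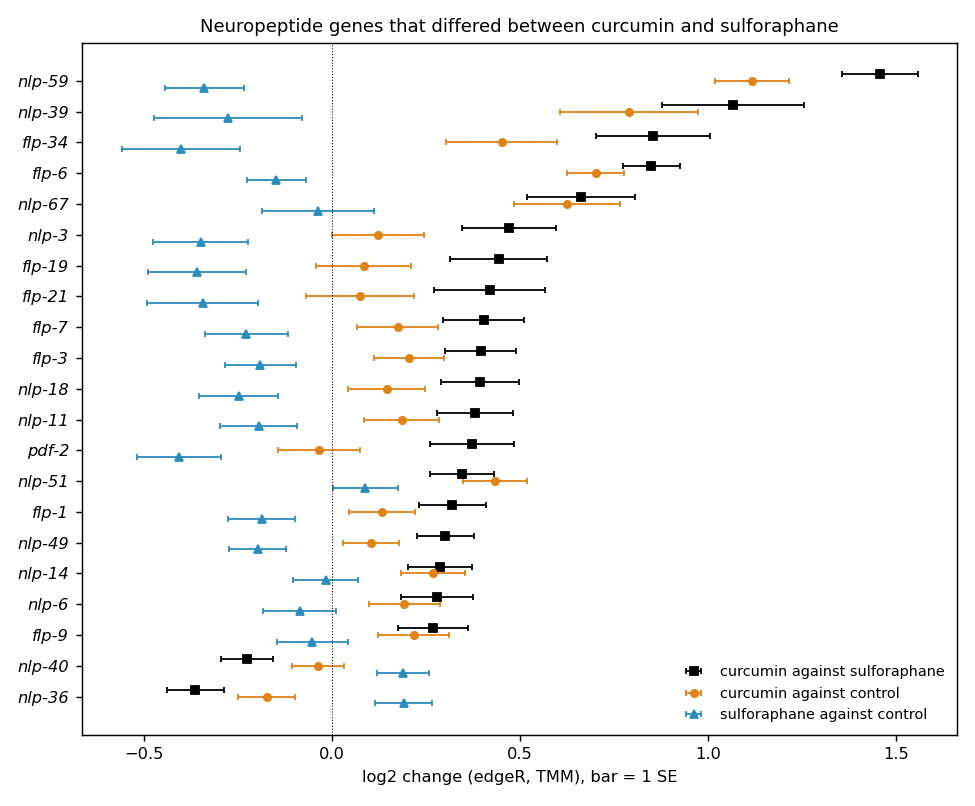
log2 change with 1 SE of the 21 neuropeptide genes that differed between curcumin and sulforaphane (black squares), with each compound against control beside it (orange circles for curcumin, blue triangles for sulforaphane; both use the same control libraries). In nlp-59, nlp-39, flp-34 and flp-6 curcumin lies above 0 and sulforaphane below 0, whereas in pdf-2 the curcumin change against control is -0.04.

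The combination against sulforaphane gave 14 members, 13 higher and 1 lower. This is 14.7% of the members, against 18.8% of all tested genes called, 9.53% called higher and 9.25% called lower, and 26 members (27.4%) had an unadjusted p under 0.05, against 29% of all tested genes. The count was 8 without sulforaphane replicate 2 and 9 without combination replicate 1 or 3, where 16.6%, 16.8% and 16.3% of all tested genes were called. Among these, nlp-59 had the largest log2 change, 1.13 (SE 0.10, adjusted p = 4.93e-09). It was followed by flp-34 with 0.69 (SE 0.15, adjusted p = 0.00190), flp-6 with 0.62 (SE 0.08, adjusted p = 1.13e-06), flp-8 with 0.52 (SE 0.12, adjusted p = 0.00225) and flp-7 with 0.49 (SE 0.11, adjusted p = 0.00187). flp-7 had 16.6, 17.9, 22.3 and 16.9 CPM in combination worms, against 14.6, 13, 13 and 11.9 CPM in sulforaphane worms, without overlap. pdf-2 was higher in combination than in sulforaphane worms by 0.33 (SE 0.11, adjusted p = 0.0380), a call lost without any one of 12 libraries (all but curcumin replicates 1 and 4, sulforaphane replicate 3 and combination replicate 2; adjusted p 0.0529 to 0.148). That call was also lost with library size alone, with all genes of at least 1 read kept and with the fit limited to the groups compared. nlp-36 was lower, by a log2 change of -0.30 (SE 0.08, adjusted p = 0.00631), with 56.5, 57, 49.6 and 56.2 CPM in combination worms, against 65, 71.5, 71.5 and 61.4 CPM in sulforaphane worms.

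Several well-studied members, also picked after their values had been seen, did not pass the test in any of the 6 pairs. flp-13, another sleep-inducing gene of ALA, had 21.4 ± 1.79 CPM in combination worms, 21.2 ± 1.5 CPM in curcumin worms, 20.4 ± 1.68 CPM in sulforaphane worms and 22 ± 4.01 CPM in control worms (SD, n = 4 each). flp-11, the sleep gene of the RIS neuron, had 29.1 ± 3.79 CPM, 30.4 ± 2.04 CPM, 26 ± 2.77 CPM and 29 ± 3.46 CPM in combination, curcumin, sulforaphane and control worms. In that order of groups flp-17 had 16.7 ± 0.687 CPM, 17.8 ± 1.21 CPM, 17 ± 2.17 CPM and 18 ± 0.957 CPM, and the cholecystokinin-like nlp-12 had 10.6 ± 1.24 CPM, 11.2 ± 2.13 CPM, 9.90 ± 1.28 CPM and 11.9 ± 1.08 CPM. For flp-13 the SE of the log2 change was 0.11 in each pair, which limits the size of change that could be called in it.

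Members with few counts had wider errors. The 24 members with a mean under 50 counts per library had a median SE of 0.33 on the log2 scale for curcumin against control, and none was called in any of the 6 pairs. For the 32 members between 50 and 200 counts that median SE was 0.15, and 3 were called for curcumin, 1 for sulforaphane and 1 for the combination against control. For the 33 members between 200 and 1000 counts the median SE was 0.10, and 5 were called for curcumin, none for sulforaphane and 6 for the combination against control. The 6 members with 1000 counts or more had a median SE of 0.08 for curcumin against control, and none was called for curcumin, none for sulforaphane and 2 for the combination. These classes were counted for the members only, so no share over all tested genes of the same class stands beside the counts. The 3 members nearest above the count rule were nlp-52, nlp-81 and nlp-63, with at least 10 counts in 5, 7 and 10 libraries. The 3 nearest below it were nlp-25, nlp-60 and nlp-22, with at most 8, 7 and 4 counts in any library.

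Position in the genome was not part of the rule. Chromosome X held 30 of them, 31.6%, against 14.2% of all tested genes, and 13 of these were flp and 16 nlp genes; the other chromosomes held 10 to 15 each. Gene coordinates overlapped another gene with counts for 30 members, nearly always on the opposite strand, and for 16 members that neighbour had at least as many counts. Overlaps were counted for the members only, so no share over all tested genes stands beside these counts. Whether the counting used strand is not given in the sources used here, so values of such members are uncertain. This touches nlp-36, which lies opposite dars-1 with 265% of its counts, flp-19 opposite abl-1 (367%) and flp-28, flp-3 and flp-2 opposite parts of W07E11.1. Between curcumin and sulforaphane dars-1 had a log2 change of -0.05 (SE 0.06, adjusted p = 0.681) and abl-1 one of -0.03 (SE 0.08, adjusted p = 0.899). W07E11.1 had 0.18 (SE 0.08, adjusted p = 0.123) in that pair. Between the combination and sulforaphane dars-1 had 0.03 (SE 0.06, adjusted p = 0.790), and W07E11.1 was itself called, at 0.27 (SE 0.08, adjusted p = 0.0137). For nlp-77 the gene opposite, glr-4, had 1.89% of its counts.

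The genes that make and load peptides come first among the other genes of the pathway. This list and those below were read against the same backgrounds as the members. Of all tested genes, 14.6% were called for curcumin against control, 6.71% for sulforaphane and 23.1% for the combination. Of 11 propeptide processing genes, none rose and 1 fell with curcumin, none was called with sulforaphane, and 1 rose and 2 fell with the combination against control. pamn-1, the amidating enzyme, had 79.2, 81.1, 84.2 and 83.8 CPM in combination worms, against 59.2, 69.4, 62 and 59.2 CPM in control worms, a log2 change of 0.40 (SE 0.07, adjusted p = 1.49e-04) without overlap. The proprotein convertase gene kpc-1 had 37.4, 37, 38.8 and 39.1 CPM in combination worms and 42.5, 40.5, 44.1 and 41.9 CPM in curcumin worms, against 56.8, 48.7, 44 and 50.8 CPM in control worms. Its log2 change was -0.40 (SE 0.08, adjusted p = 5.37e-04) with the combination and -0.24 (SE 0.08, adjusted p = 0.0383) with curcumin, the second lost without any one of 7 libraries (control replicates 1, 2 and 4, curcumin replicates 1, 2 and 4, sulforaphane replicate 4; adjusted p 0.0609 to 0.175). The kpc-1 call with curcumin was also lost with DESeq2's size factors and both FPKM scales. The same held with all genes of at least 1 read kept and with the fit limited to the groups compared. The carboxypeptidase gene cpd-2 fell with the combination by a log2 change of -0.31 (SE 0.10, adjusted p = 0.0340), a call lost without control replicate 1 or 2 or combination replicate 1, 3 or 4 (adjusted p 0.0593 to 0.0833). That call was also lost with all genes of at least 1 read kept and with the fit limited to the groups compared. The convertase egl-3, a main neuronal enzyme of this step, was called in no pair, with 199 ± 15.2 CPM in combination worms, 209 ± 8.40 CPM in curcumin worms, 187 ± 17.2 CPM in sulforaphane worms and 195 ± 17.6 CPM in control worms (SD, n = 4 each). Of 12 dense core vesicle genes only rbf-1 was called against control, lower with curcumin by a log2 change of -0.31 (SE 0.10, adjusted p = 0.0332) and lost without any one of 6 libraries (control replicates 1 and 2, curcumin replicates 2, 3 and 4, sulforaphane replicate 4; adjusted p 0.0504 to 0.143). rbf-1 was also lost with all genes of at least 1 read kept, with the fit limited to the groups compared and on both FPKM scales.

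Of 87 tested peptide receptor genes, 8 rose and none fell with curcumin, 1 rose with sulforaphane, and 10 rose and 2 fell with the combination against control. The share of receptor genes called was below that of all tested genes each time (14.6% for curcumin, 6.71% for sulforaphane, 23.1% for the combination). The 3 largest rises with curcumin were dmsr-11, dmsr-16 and dmsr-12, of a family named after the *Drosophila* myosuppressin receptors. They lie together on chromosome V between 6802412 and 6809062, and as members of one family they may share reads. dmsr-16 had 4.12, 5.55, 5.82 and 4.96 CPM in combination worms, 8.34, 8.95, 11.5 and 8.68 CPM in curcumin worms, 0.707, 0.519, 1.93 and 0.817 CPM in sulforaphane worms and 1.33, 3.33, 2.06 and 1.66 CPM in control worms. The curcumin and combination libraries were all above the control. Its log2 change against control was 2.16 (SE 0.25, adjusted p = 6.02e-07) with curcumin and 1.29 (SE 0.26, adjusted p = 6.21e-04) with the combination. The combination was below curcumin by a log2 change of -0.87 (SE 0.23, adjusted p = 0.0173), lost without curcumin replicate 3 or combination replicate 1 (adjusted p 0.0676 and 0.0758) and with limma on log2(FPKM + 0.1) (adjusted p = 0.106).

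dmsr-11 had 1.42, 2.37, 2.54 and 2.01 CPM in curcumin worms, against 0.190, 0.267, 0.374 and 0.446 CPM in control worms, a log2 change of 2.67 (SE 0.45, adjusted p = 9.68e-05). It rests on 28 to 40 counts per curcumin library and 3 to 7 per control library, and its size depended on the scale: limma on log2(FPKM + 1), which understates the change of low genes, gave 1.04, and the highest of the other settings 2.88. With the combination it rose by 1.41 (SE 0.49, adjusted p = 0.0367), with 0.40 to 1.63 over the settings and the lowest again on log2(FPKM + 1). That call was lost without control replicate 1, 2 or 3 or combination replicate 2 or 3 (adjusted p 0.0605 to 0.159) and with limma on log2(FPKM + 0.1) (adjusted p = 0.0516). dmsr-12 rose with curcumin by 1.86 (SE 0.42, adjusted p = 0.00226), on 19 to 40 counts per curcumin library and 2 to 9 per control library; on log2(FPKM + 1) the change was 0.77. Among receptor genes with more counts, npr-8 had 16.5, 13.6, 14.5 and 11 CPM in curcumin worms, against 6.26, 8.73, 7.99 and 7.72 CPM in control worms, a log2 change of 0.86 (SE 0.14, adjusted p = 5.15e-05). With the combination npr-8 rose by 0.61 (SE 0.14, adjusted p = 0.00175) and npr-26, plotted with it and frpr-5 after their values had been seen, by 0.87 (SE 0.13, adjusted p = 1.75e-05). gnrr-5 rose with the combination by 0.93 (SE 0.29, adjusted p = 0.0192), lost without control replicate 2 or 4 or combination replicate 4 (adjusted p 0.0519 to 0.0919), and on log2(FPKM + 1) the change was 0.44. Sulforaphane raised npr-31 by 0.68 (SE 0.20, adjusted p = 0.0380), lost without any control replicate or sulforaphane replicate 1, 3 or 4 (adjusted p 0.0510 to 0.129) and with library size alone.

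Both receptor genes that fell with the combination were called narrowly. dmsr-6 fell by a log2 change of -0.73 (SE 0.23, adjusted p = 0.0244), lost without control replicate 4 or combination replicate 1 (adjusted p 0.0844 and 0.0865), and on log2(FPKM + 1) the change was -0.45. seb-2 fell by -0.26 (SE 0.08, adjusted p = 0.0265), lost without control replicate 3 or combination replicate 1 or 4 (adjusted p 0.0568 to 0.104) and with all genes of at least 1 read kept. Among the known receptors of called peptides are aex-2 for nlp-40, npr-22 for flp-7 and seb-3 for nlp-49. These receptor genes were called in none of the comparisons with control, at means of 1.82 to 3.15 CPM over all groups. Their peptide genes were not called against control either, only between treated groups, so no call of a peptide gene is matched here. Values for other receptors named above, such as NPR-11 for flp-34, are not given.

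**Figure D5:**
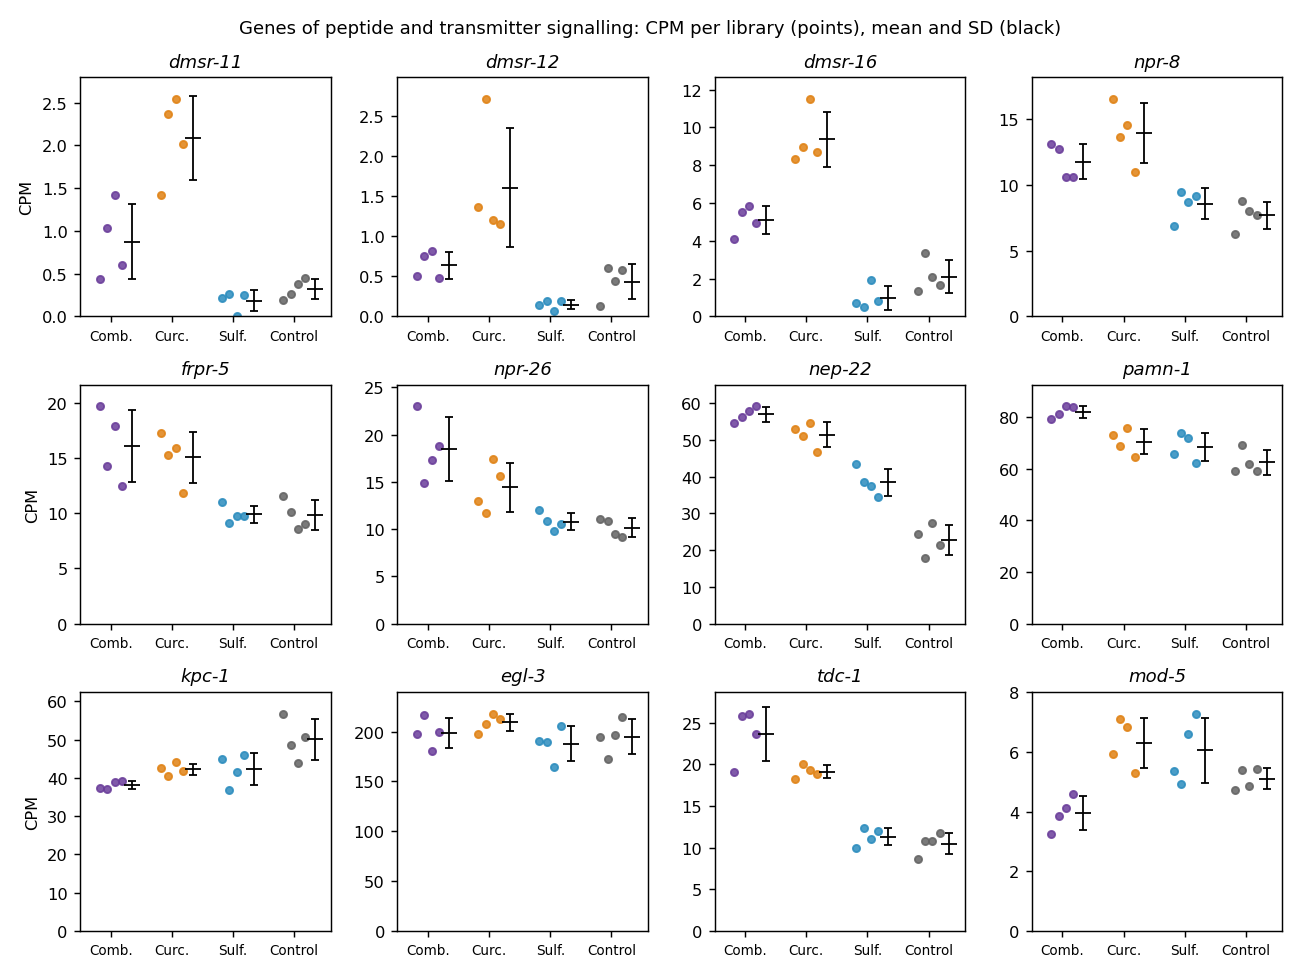
CPM per library (points; 4 per group, from left to right combination, curcumin, sulforaphane, control) with the mean and SD in black, for receptor genes (dmsr-11, dmsr-12, dmsr-16, npr-8, frpr-5, npr-26), the peptidase gene nep-22, the processing genes pamn-1, kpc-1 and egl-3, and the amine genes tdc-1 and mod-5; each axis starts at 0. dmsr-16 and tdc-1 are higher in all combination and curcumin libraries than in any control library, and nep-22 is higher in every treated library than in any control library.

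Among 18 tested neprilysin-like peptidase genes, nep-22 rose in all 3 treatments. It had 54.5, 56.2, 57.9 and 59.1 CPM in combination worms, 52.9, 51.1, 54.6 and 46.7 CPM in curcumin worms, 43.4, 38.4, 37.4 and 34.5 CPM in sulforaphane worms and 24.3, 17.8, 27.5 and 21.4 CPM in control worms. No treated library overlapped the control. The log2 change was 1.32 (SE 0.10, adjusted p = 1.41e-10) with the combination, 1.17 (SE 0.10, adjusted p = 2.08e-09) with curcumin and 0.75 (SE 0.10, adjusted p = 1.04e-05) with sulforaphane. The combination rose less than the sum of both, with an interaction of -0.60 (SE 0.14, adjusted p = 0.0259), lost without sulforaphane replicate 1 (adjusted p = 0.0662) and with limma on log2(FPKM + 1) or log2(FPKM + 0.1) (adjusted p 0.0650 and 0.0644). With the combination nep-17 also rose, by 0.38 (SE 0.08, adjusted p = 0.00122), as did nep-18, by 0.42 (SE 0.14, adjusted p = 0.0294; lost without control replicate 1, 2 or 3 or combination replicate 1 or 4, adjusted p 0.0534 to 0.0928). The nep-18 call was also lost with library size alone, with all genes of at least 1 read kept and with limma on log2(FPKM + 0.1). nep-4 fell by -0.60 on the log2 scale (SE 0.15, adjusted p = 0.00487).

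Other neuronal genes gave a scale for these changes. Of 15 pan-neuronal genes none was called with curcumin or sulforaphane against control. With the combination snb-1, the synaptic vesicle protein synaptobrevin, rose by 0.25 (SE 0.06, adjusted p = 0.00345) and ric-19 fell by -0.40 (SE 0.10, adjusted p = 0.00390). Between curcumin and sulforaphane 3 of the 15 were called, against 18.1% of all tested genes: unc-119 was higher and unc-18 and unc-64 were lower with curcumin. The 15 genes summed to 850 to 901 CPM in combination worms, 778 to 839 CPM in curcumin worms, 818 to 864 CPM in sulforaphane worms and 797 to 812 CPM in control worms. Of 14 genes of classical transmitters, tdc-1, the tyrosine decarboxylase that makes tyramine, had 19.1, 25.8, 26.1 and 23.6 CPM in combination worms and 18.2, 20.1, 19.3 and 18.9 CPM in curcumin worms, against 8.66, 10.8, 10.8 and 11.7 CPM in control worms. It rose by 1.17 (SE 0.11, adjusted p = 9.93e-09) with the combination and 0.87 (SE 0.11, adjusted p = 2.52e-06) with curcumin. bas-1, an aromatic amino acid decarboxylase of dopamine and serotonin synthesis, rose with sulforaphane by 0.33 (SE 0.07, adjusted p = 0.00521).

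Markers of other tissues moved with the same treatments. Of 7 intestinal markers, 6 fell with curcumin and 7 with the combination, summing to 717 to 779 CPM in combination worms, 798 to 876 CPM in curcumin worms, 1250 to 1400 CPM in sulforaphane worms and 1120 to 1240 CPM in control worms, and none was at 0 in any group. With sulforaphane act-5 was called higher, by a log2 change of 0.58 (SE 0.09, adjusted p = 1.54e-04). Of 8 body wall muscle markers, 6 rose with the combination and 1 with curcumin, at 2360 to 3160 CPM in combination worms, 2260 to 2810 CPM in curcumin worms, 2010 to 2430 CPM in sulforaphane worms and 2060 to 2370 CPM in control worms. Of 5 tested glial markers, 1 rose and 1 fell with the combination, 1 fell with curcumin and 1 fell with sulforaphane. They summed to 131 to 153 CPM in combination worms and 145 to 162 CPM in curcumin worms. The sum was 198 to 207 CPM in sulforaphane worms and 178 to 205 CPM in control worms. In curcumin worms most of it was 1 gene, itx-1, at 113 to 126 CPM. itx-1 had log2 changes of -0.42 with curcumin and -0.59 with the combination, whereas kcc-3 rose by 0.62 with the combination. The median log2 change of the 5 markers was -0.02 with curcumin and 0.50 with the combination, so the sum does not describe the list as a whole. Of 6 pharyngeal muscle markers, pha-4 fell with the combination, and of 9 germline genes oma-2 rose and nos-2 fell with both curcumin and the combination. Several of these calls were lost without single libraries: unc-15 with curcumin (without control replicate 1, 2 or 3, curcumin replicate 2, 3 or 4, sulforaphane replicate 1 or 2 or combination replicate 1 or 4; adjusted p up to 0.164), mup-2 with the combination (without control replicate 2 or combination replicate 2, 0.0569 and 0.0795), the glial fig-1 with sulforaphane (without control replicate 1 or 3 or sulforaphane replicate 3, 0.0594 to 0.0700) and nos-2 with curcumin (without control replicate 1, 2 or 4, curcumin replicate 2, 3 or 4 or sulforaphane replicate 4, up to 0.160) and the combination (without control replicate 1 or combination replicate 2, 3 or 4, up to 0.0866). On both FPKM scales unc-15 and nos-2 with curcumin and fig-1 with sulforaphane were also lost, and so was unc-15 with library size alone. No epidermal (5 tested) or coelomocyte (3) marker was called against control. The part of these shifts in the neuropeptide results was not tested.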

How the data were processed

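Gene counts and FPKM of 16 whole-worm RNA-seq libraries were used as deposited by the authors. The submitters' processing notes list HISAT2 2.0.5, StringTie 1.3.3b, featureCounts 1.5.0-p3, DESeq2 1.20.0 and the build WBcel235, without roles. Whether counting used strand is not given in the sources used here. The deposited FPKM equalled count over length and library depth for all 7607 genes compared, with depths of 0.95 to 1.07 times the total count.

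Counts were filtered with filterByExpr (minimum count 10, minimum total 15), scaled by TMM and tested with edgeR 4.0.16 (limma 3.58.1, R 4.3.3): quasi-likelihood F tests over all 16 samples with no covariate, 12 residual degrees of freedom, and Benjamini-Hochberg adjustment over 14328 genes. Genes were called at an adjusted p under 0.05. CPM are TMM-scaled. Samples were grouped by their titles, and replicates of a group, 24 pairs, differed by more than sampling noise.

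The members, gene lists and tests were chosen with earlier results of these data known. Named by rule were members called for the interaction, up to 12 rises and 12 falls against control, up to 5 each between treated groups, the 10 highest by FPKM, pdf-1 and pdf-2, up to 3 rises and 3 falls per list, and the 3 nearest to the count rule on each side. Others are said to be named after their values were seen. Alternatives were scaling, filters, DESeq2 1.42.0, limma on log2(FPKM + 1) or log2(FPKM + 0.1), only the groups compared, a replicate block, and leaving out each library. Gene coordinates are those of the deposited table, and no sequence was used. Intervals and SEs cover the spread between these 16 libraries.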

Additional observations from a re-analysis of the deposited data

Results flagged for a closer look

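Among 236 sets of 4 replicate values, 12 had 1 library whose gap to the nearest other, over the whole range, was above Dixon's critical value, and chance flags about 1 set in 20, or 5%. Among the members, flp-22 had 58.4 CPM in combination replicate 3, against 47.9 to 49.5 CPM in the other combination libraries. In the same library nlp-36 was low, at 49.6 CPM against 56.2 to 57 CPM. nlp-51 stood at 20.3 CPM in sulforaphane replicate 2, against 19.1 to 19.2 CPM. pdf-2 was at 8.96 CPM in curcumin replicate 4, against 11.2 to 11.6 CPM. nlp-77 was at 631 CPM in control replicate 1, against 506 to 511 CPM, and the summed nlp level was 2036 CPM in sulforaphane replicate 1, against 1865 to 1891 CPM.

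Outside the members, dmsr-12 was at 2.71 CPM in curcumin replicate 2, against 1.15 to 1.37 CPM, and gnrr-5 at 1.14 CPM in curcumin replicate 3, against 2.1 to 2.13 CPM. The pan-neuronal ric-19 was at 15.5 CPM in curcumin replicate 1, against 12.9 to 13.3 CPM, and the glial itx-1 at 113 CPM in curcumin replicate 4, against 124 to 126 CPM. bas-1 had 37.7 CPM in control replicate 2, against 33.8 to 34.3 CPM, and nos-2 had 3.99 CPM in combination replicate 1, against 2.13 to 2.42 CPM.

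For 2 genes of the lists the change under the combination differed from the sum of both single changes in edgeR's test of that difference. For mod-5, the serotonin transporter gene, the interaction was -0.91 on the log2 scale (SE 0.22, adjusted p = 0.0476). It had 3.24, 3.84, 4.13 and 4.6 CPM in combination worms, 5.92, 7.12, 6.85 and 5.29 CPM in curcumin worms, 5.37, 4.93, 6.62 and 7.29 CPM in sulforaphane worms and 4.74, 5.4, 4.87 and 5.42 CPM in control worms. The call was lost without any one of 11 libraries (all but control replicate 4, curcumin replicate 4, sulforaphane replicates 1 and 2 and combination replicate 4; adjusted p 0.0519 to 0.118), with library size alone (0.0650) and with limma on log2(FPKM + 1) or log2(FPKM + 0.1) (0.0982 and 0.116). For nep-22 the interaction was -0.60 (SE 0.14, adjusted p = 0.0259), lost without sulforaphane replicate 1 (adjusted p = 0.0662) and with limma on log2(FPKM + 1) or log2(FPKM + 0.1) (0.0650 and 0.0644).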

How the results depend on the processing

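Counts of members called against control ranged over the other scalings, filters, tools and units from 6 to 11 for curcumin and from 7 to 11 for the combination. Apart from the fit with a replicate block, 8.58% to 16.7% of all genes in the same fit were called for curcumin. That share was 13.5% to 26.1% for the combination and 4.81% to 8.42% for sulforaphane, each time lowest with all genes of at least 1 read kept. For sulforaphane the count of 1 became 2 with library size alone, with genes of at least 10 counts in every sample and with DESeq2's Wald test, and 3 with limma on log2(FPKM + 1) or log2(FPKM + 0.1); with genes of at least 1 read in any sample it was 1 again, but another gene than pdf-2. For the combination against curcumin that wide filter gave 5 in place of 3, with 4.91% of all genes in that fit called. The interaction count of 0 became 1, nlp-51 each time, with DESeq2 and with both FPKM scales. The cause of these shifts was not tested. Leaving out each library gave 5 to 10 calls for curcumin, 0 to 3 for sulforaphane and 7 to 11 for the combination against control, 1 to 4 for the combination against curcumin, 8 to 14 for the combination against sulforaphane, 15 to 22 for curcumin against sulforaphane and 0 to 1 for the interaction. Of all genes, 11.9% to 15.2% were then called for curcumin, 5% to 7.46% for sulforaphane and 20% to 23.5% for the combination against control. The share was 5.96% to 7.36% for the combination against curcumin and 15.6% to 19.1% for the combination against sulforaphane. For curcumin against sulforaphane it was 15.1% to 18.8%, and for the interaction 0.722% to 1.07%. Over 56 called member values, 1400 values were recomputed: none changed direction, 194 missed the threshold and 32 calls were never lost.

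Same-numbered libraries of different groups deviated together weakly (mean r 0.11, range 0.01 to 0.21, 12 of 24 pairs over 0.1). In 72 pairs with different numbers the mean r was -0.04, and 14 of 16 libraries correlated best with their own number. No label ties the numbers to a batch, and the main fit did not take them as pairs. Any effect shared by libraries of a number was therefore not removed there. With replicate number as a block the counts were 11 for curcumin (18.2% of all tested genes called), 3 for sulforaphane, 1 higher and 2 lower (10.3%), and 10 for the combination (27.8%) against control. They were 4 for the combination against curcumin (10.7%), 19 for the combination against sulforaphane (22.8%), 24 for curcumin against sulforaphane (22.1%) and 1 for the interaction (2.22%), nlp-51 (adjusted p = 0.0323). None of the 24 members under 50 counts per library was called.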
